A study of Mus musculus with 6 samples.

Results

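The forkhead (Fox) genes were taken as every gene symbol in the deposited mouse tables that starts with Fox, a letter from a to s and a digit, with Foxp3 left out. This gave 45 of the 24063 gene symbols, of which 43 code for proteins and 2, Foxd2os and Foxl2os, are long noncoding RNAs named after their forkhead neighbours. The members carry 19 subfamily letters, A to S. The rule that chose them reads only the symbol, but it was set with earlier results of these data known.

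The tissues sequenced were 3 penile tumors of SA mice and 3 samples of normal penile epithelium of WT mice, and all mice were 5 months old. SA mice had the genotype PB-Cre+ Smad4L/L ApcL/L, in which Cre is driven by the androgen-responsive probasin promoter and removes Smad4 and Apc from the cells where that promoter is active, and their tumors arose with no carcinogen. WT mice were C57BL/6 animals with no Cre or floxed allele named in their labels, so that Cre, floxed alleles and tumor state cannot be told apart between the groups. Levels are given as CPM, a count scaled to the library size after normalization by edgeR's TMM method, or as TPM, which also corrects for transcript length and was used wherever genes or subfamilies were compared with each other.

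The gene rows held between 23828283 and 110509147 counts per sample, and a count of 3 corresponded to between 0.0244 and 0.137 CPM. This floor covers counting error only. Smad4 was at 36.1 to 46.1 CPM in SA tumors and at 61.2 to 72.5 CPM in WT penises, and Apc was at 194 to 253 and at 62.5 to 91.1 CPM. A deletion of exons need not lower the count of the whole transcript. The labelled tissue was checked against marker genes: summed keratinocyte markers (8 genes, none at 0) were at 22604 to 27581 CPM in SA tumors and at 64198 to 72211 CPM in WT penises, and summed smooth muscle markers (6 genes) at 88.6 to 193 and at 1580 to 2083 CPM. Both tissues thus held keratinocyte RNA, and the samples labelled as epithelium also held RNA of other cells. In bulk tissue, fewer cells of a type and less RNA per cell cannot be told apart.

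Forkhead proteins bind DNA through a winged-helix domain of about the same fold in every subfamily, in which one helix reads the bases of the site. Family members differ mainly outside that domain and in where they are expressed: FoxA proteins open chromatin in endoderm and gland epithelium, FoxC, FoxD, FoxF and FoxL genes act largely in mesenchyme, FoxO proteins respond to insulin and growth factor signals, FoxM1 drives genes of mitosis, and FoxE1, FoxI3, FoxN1 and FoxQ1 act in skin and its appendages. In skin several of them control hair growth, which is how the mouse mutants nude (Foxn1) and satin (Foxq1) were first recognised.

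The coding bases of the recognition helix, the helix that reads the site, are shown for 5 of the protein-coding members past both thresholds below. Capitals mark the 24 bases that code for the helix residues from asparagine to serine. The stretches are read in the direction of transcription from the reference transcripts of GRCm38, the mm10 build.
Foxa3: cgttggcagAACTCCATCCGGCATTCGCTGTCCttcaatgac
Foxj1: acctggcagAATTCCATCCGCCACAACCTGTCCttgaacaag
Foxl1: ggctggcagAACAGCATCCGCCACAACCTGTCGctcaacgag
Foxo6: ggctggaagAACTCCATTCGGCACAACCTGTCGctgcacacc
Foxd3: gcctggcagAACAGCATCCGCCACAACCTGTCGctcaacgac
A stretch of this kind was found in 36 members. Across whole transcripts the 45 members made 990 pairs, and 0 pairs shared a run as long as a read of 76 bases. The longest shared run was 68 bases, in Foxd3 and Foxd4, and the longest shared with Foxa2 was 38 bases.

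Promoters, taken as the 250 bases before a RefSeq start in GRCm38.p6, were found for 28 members in 32 windows. Those of 3 members are printed: Foxa2, the gene with the largest fitted increase, Foxd3, the gene past both thresholds in the other direction, and Foxl2, whose window lies between Foxl2 and the oppositely transcribed Foxl2os. They lie at chr2:148046970-148047219 (minus strand), chr4:99656049-99656298 (plus strand) and chr9:98955357-98955606 (plus strand).
Foxa2: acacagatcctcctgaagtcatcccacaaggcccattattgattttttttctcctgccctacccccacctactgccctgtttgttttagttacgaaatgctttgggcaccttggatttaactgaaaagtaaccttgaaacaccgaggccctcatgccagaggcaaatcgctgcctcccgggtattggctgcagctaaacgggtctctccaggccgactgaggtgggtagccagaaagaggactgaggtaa
Foxd3: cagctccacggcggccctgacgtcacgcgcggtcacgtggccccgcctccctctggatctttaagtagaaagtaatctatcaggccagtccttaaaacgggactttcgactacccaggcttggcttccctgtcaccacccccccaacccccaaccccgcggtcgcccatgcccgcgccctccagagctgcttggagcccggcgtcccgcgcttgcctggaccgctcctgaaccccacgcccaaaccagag
Foxl2: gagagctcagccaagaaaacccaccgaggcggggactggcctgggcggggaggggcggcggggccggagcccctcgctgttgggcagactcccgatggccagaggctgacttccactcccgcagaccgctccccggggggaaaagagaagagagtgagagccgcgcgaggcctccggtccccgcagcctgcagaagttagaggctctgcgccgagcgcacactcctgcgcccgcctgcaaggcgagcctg
Their G and C content was 50.8% for Foxa2, 65.6% for Foxd3 and 70.8% for Foxl2, within a range of 45.2% to 80.4% over the 32 windows. The letters CTTTGAA or CTTTGAT, read on both strands as the site of TCF and LEF factors, were in 1 of the 32 windows (3.13%), that of Foxp1, against 7.48% of 32851 windows of all genes. The letters GTAAACA, a forkhead site, were in 1 of the 32 (3.13%), that of Foxa1, against 3.17% of all windows. None of the 3 printed windows holds them, which says only that these letters are absent from these 250 bases.

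A count was seen for 44 of the 45 members, all but Foxb2, and 41 had at least 3 counts in some sample. The deepest library was SA tumor 3, with 110509147 counts where no other sample exceeded 32871142. Foxb1, Foxe3, Foxh1, Foxi1 and Foxi2 reached 3 counts only in that library, and Foxr1 and Foxr2 were counted only there. In every sample, 27 had at least 3 counts. The filter on low counts left 33 members, from 15 subfamilies, among 16336 genes tested. Of the 33, 4 passed it with every WT sample below the filter's 0.380 CPM and 1 with every SA sample below it, so that those 5 could enter only by differing between the groups.

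Where the adjusted p was under 0.01 and the log2 fold change at least 2 in size, the thresholds used in the study, 8 forkhead genes were higher in SA tumors (24.2% of the 33) and 9.41% of all genes tested were. They were Foxa2, Foxa3, Foxi3, Foxl1, Foxj1, Foxo6 and the noncoding Foxd2os and Foxl2os. The noncoding genes passed both thresholds in only 2 and 1 of the 6 fits with a sample left out. Foxa2, Foxa3, Foxi3 and Foxl1 are the 4 with every WT sample below the filter's 0.380 CPM. Foxj1, with 4, 1 and 11 counts in WT penises, also needed SA tumors to pass the filter, which asks for 3 samples. The 24.2% thus rests in part on how genes entered the test. Foxd3 was the 1 gene lower past both thresholds (3.03%), where the background was 3.59%, and it entered the test only through WT penises. At an adjusted p under 0.05 and any fold change, 25 of the 33 differed, which is 75.8% where the background was 53.4%. Of these, 14 rose (background 28.2%) and 11 fell (background 25.2%), and "rose" and "fell" are used below for this criterion. With scaling by library totals alone the split was 15 and 7. Between the groups, 26 members did not overlap, 14 with every SA tumor above every WT penis and 12 below, which is 78.8% of the 33 and 63.4% of all genes tested. The log2 fold change had a median of 0.34 over the 33 members and of 0.029 over the whole table. With 3 samples a group, the smallest two-sided p of an exact permutation test on a single gene is 0.1, so the p-values are those of edgeR's quasi-likelihood test over all genes.

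**Figure D1:**
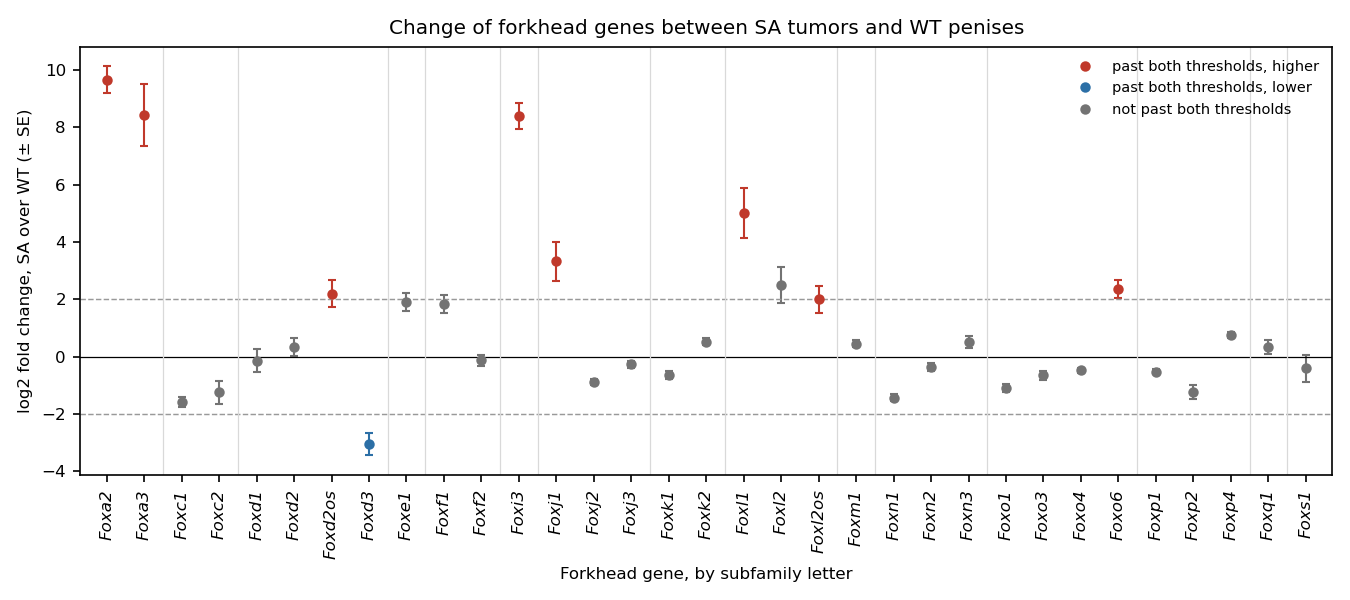
Log2 fold change of SA tumors over WT penises, with its standard error, for the 33 forkhead genes tested, ordered by subfamily letter (vertical axis, log2 units; dashed lines at the fold threshold of 4). Foxa2 at 9.66 and Foxi3 at 8.41 stand far above the others; Foxa3, drawn at 8.43, had no WT count, so that its height depends on the prior count, and Foxd3 at -3.04 is the lowest.

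**Figure D2:**
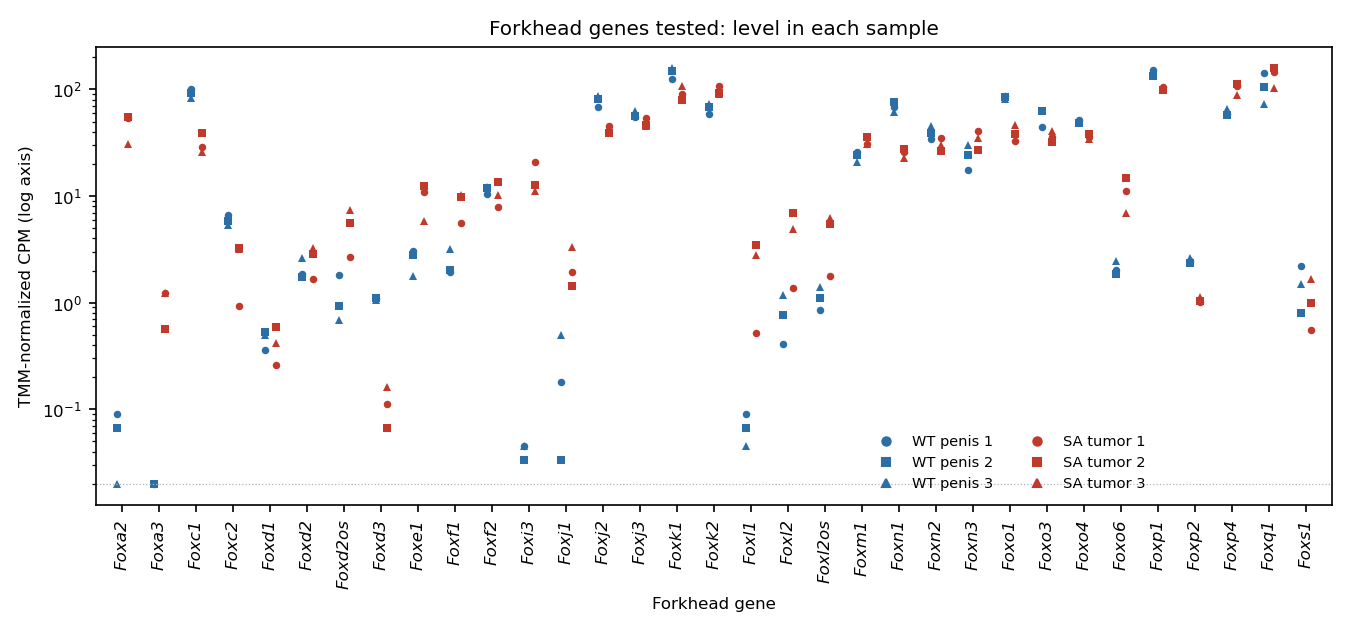
Level of the 33 forkhead genes in each sample (vertical axis, TMM-normalized CPM on a log scale; values below 0.02, zeros included, are drawn at the dotted line at 0.02). WT penises are blue and SA tumors red, and circles, squares and triangles stand for replicates 1, 2 and 3; Foxa2 and Foxi3 move from the bottom of the plot in WT penises to between 11.0 and 54.9 CPM in SA tumors.

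FoxA genes, pioneer factors of liver, lung, gut and prostate epithelium, were higher in SA tumors for both members tested. Foxa2 (NM_010446, chr2:148042877-148046969) was at 53.4, 54.9 and 30.6 CPM in SA tumors, and at 0.0904, 0.0668 and 0 CPM in WT penises, where 4 reads were counted in all. All 3 tumors were far above the 3 controls, with replicate 3 the lowest. The log2 fold change was 9.66 (SE 0.462, adjusted p = 2.75e-06), and the ratio of pooled counts 705, with a 95% counting interval of 275 to 2588. Foxa3, the member most used in liver, was at 1.23, 0.563 and 1.22 CPM in SA tumors and had no count in any WT penis. Set against a floor of 3 counts in the shallowest WT library its SA mean was at least 7.33-fold higher (adjusted p = 0.000865). Foxa1, which binds many of the same sites as Foxa2, was not tested: it had 6, 7 and 15 counts in SA tumors and 3, 10 and 2 in WT penises, and the groups overlapped in CPM. Per length, Foxa2 was 355 to 377 times as abundant as Foxa1 in the 3 SA tumors.

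Of 14 genes linked to FoxA factors in endoderm and secretory epithelia, 6 could be tested. Shh, the Hedgehog ligand, rose by 8.25 (SE 0.192, adjusted p = 6.09e-07) and Cdx2, an intestinal homeobox gene, by 8.79 (SE 1.10, adjusted p = 0.000788), the latter against 0 counts in WT penises. Scgb1a1, a secretory protein of the airway, fell by 2.46 on the log2 scale (adjusted p = 0.000607). Spdef, a factor of goblet cells, rose by 1.01 (adjusted p = 0.0190), while Muc2 and Sox17 did not pass. The trefoil genes Tff1, Tff2 and Tff3 and the mucin gene Muc5ac stayed under the filter, with at most 40 counts in any library. Among markers of urothelium and prostate, Upk3a was at 2.31 to 2.98 CPM in SA tumors with no WT count and Upk2 at 0.983 to 2.86 CPM against at most 0.100 CPM, whereas Pbsn had no count in any sample. The summed level of these 6 markers was 5.51 to 7.51 CPM in SA tumors and 1.08 to 1.90 CPM in WT penises, and the part of such cells in the level of Foxa2 was not tested.

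Among the forkhead genes of skin and its appendages, Foxi3 and Foxe1 rose, Foxn1 fell, and Foxq1 did not pass the test. Foxi3 (NM_001101464, chr6:70956606-70961066), a factor of the placodes from which hair and teeth form, was at 20.8, 12.7 and 11.0 CPM in SA tumors and at 0.0452, 0.0334 and 0.0456 CPM in WT penises, which is 1 read in each. No overlap was seen, and the log2 fold change was 8.41 (SE 0.454, adjusted p = 3.63e-06), with a ratio of pooled counts of 316 (95% counting interval 108 to 1531). Foxe1, a factor of thyroid and of hair follicle, was at 10.8, 12.3 and 5.87 CPM against 3.03, 2.80 and 1.78 CPM. It rose by 1.91 (SE 0.329, adjusted p = 0.00141), just short of the fold threshold, which it passed with 2 of the 6 samples left out in turn and with scaling by library totals.

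Foxn1, the nude gene, which promotes keratinocyte differentiation, was at 25.8, 27.7 and 22.7 CPM in SA tumors and at 67.7, 75.5 and 61.8 CPM in WT penises. All tumors were below all controls, and the log2 fold change was -1.43 (SE 0.121, adjusted p = 3.21e-05). Foxq1, the satin gene of the hair shaft, was at 144, 159 and 103 CPM against 143, 105 and 72.8 CPM. The groups overlapped and the log2 fold change was 0.34 (SE 0.259, adjusted p = 0.301). Per length Foxq1 was nevertheless the most abundant forkhead transcript in both groups, at 119 ± 22.2 TPM (SD, n = 3) and 70.2 ± 18.4 TPM (SD, n = 3). The ratio of Foxq1 to Foxn1, which no scaling between samples can change, was 5.26 to 6.69 in SA tumors and 1.37 to 2.46 in WT penises.

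Beside these, 11 regulators of the hair follicle were all tested, and 5 were higher and 1 lower past both thresholds (9.41% and 3.59% of all genes tested), with a median log2 fold change of 1.82. The list was chosen with earlier results of these data known, so these counts are not independent of the data. Lef1, a partner of beta-catenin, rose by 6.66, Lhx2 by 6.62, Wnt10b by 5.03, Edar, the ectodysplasin receptor, by 3.87 and Bmp4 by 2.20, whereas Hoxc13, a regulator of hair keratins, fell by 3.63 on the log2 scale. Over the 8 keratinocyte markers the median was -1.26. In edgeR 6 of them fell (background 25.2%) while 0 rose (background 28.2%), and 7 and 0 in DESeq2 or at an unadjusted p under 0.05. Krt15 fell by 3.61 on the log2 scale and Krt10, a keratin of the differentiated layers, fell by 1.97. How far the keratinocyte content entered into Foxn1 was not tested.

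**Figure D3:**
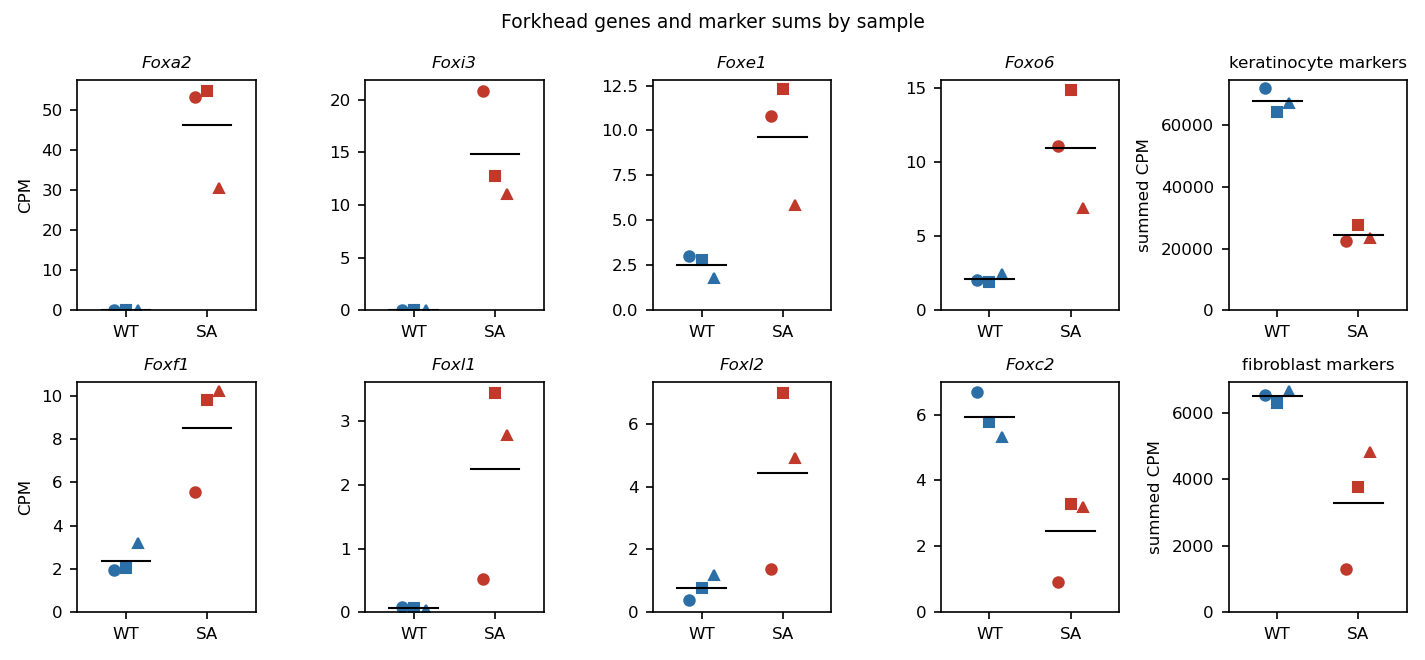
Levels of 8 forkhead genes and of summed keratinocyte and fibroblast markers in each sample (vertical axes, CPM or summed CPM, linear and from 0; circles, squares and triangles are replicates 1, 2 and 3; bars are group means). In SA tumor 1 Foxf1, Foxl1, Foxl2 and Foxc2 are the lowest of the 3 tumors, as are the fibroblast markers, at 1293 CPM against 3758 and 4818 CPM in the other two, while Foxa2, Foxe1 and Foxo6 are lowest in replicate 3.

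The forkhead genes of mesenchyme moved in different directions. Foxl1 (NM_008024, chr8:121127685-121130644), a Hedgehog-responsive gene of the mesenchyme under gut epithelium, was at 0.520, 3.44 and 2.78 CPM in SA tumors and at 0.0904, 0.0668 and 0.0456 CPM in WT penises, where 5 reads were counted in all. It was low in the first tumor, yet above every control, with a log2 fold change of 5.02 (SE 0.858, adjusted p = 0.00144) and a ratio of pooled counts of 37.8 (95% counting interval 16.1 to 117). Foxf1, another Hedgehog target in mesenchyme and a factor of lung and gut vessels, was at 5.57, 9.80 and 10.2 CPM against 1.94, 2.04 and 3.19 CPM. It rose by 1.85 (SE 0.306, adjusted p = 0.00117), short of the fold threshold, and exceeded it without the first SA tumor, at 2.07, or without WT replicate 3, at 2.08.

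Foxf2, its closest relative, was at 7.88, 13.4 and 10.3 CPM in SA tumors and at 10.5, 12.0 and 12.0 CPM in WT penises. The groups overlapped, and the log2 fold change of -0.12 (SE 0.202, adjusted p = 0.630) turned positive, to 0.16, with scaling by library totals and, to 0.035, without the first SA tumor. The ratio of Foxf1 to Foxf2 per length was 0.690 to 0.964 in SA tumors and 0.166 to 0.259 in WT penises. Foxf2 was thus the more abundant of the pair in all 6 samples, by less in the tumors.

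Foxl2, known from ovary and eyelid, was at 1.37, 6.99 and 4.91 CPM in SA tumors and at 0.407, 0.768 and 1.18 CPM in WT penises. Its log2 fold change was 2.50 (SE 0.620) with an adjusted p of 0.0104, just outside the threshold, and without the first SA tumor it was 2.90 with an adjusted p of 0.000402. Foxl2os, whose start lies 297 bp from that of Foxl2 on the other strand, was at 1.78, 5.50 and 6.17 CPM against 0.859, 1.10 and 1.41 CPM. Both transcripts were lowest in the first tumor, and in neither did the groups overlap. Foxl2os rose by 2.01 (SE 0.467, adjusted p = 0.00691), just inside both thresholds, which it passed in 1 of the 6 fits with a sample left out, that without the first SA tumor, at 2.37. The ratio of Foxl2os to Foxl2 per length was 0.531 to 0.876 in SA tumors and 0.805 to 1.43 in WT penises, and overlapped.

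Of the FoxC genes, which act in the mesenchyme of eye, heart and vessels, Foxc1 is also expressed in hair follicle stem cells. Foxc1 (NM_008592, chr13:31806646-31810635) was at 28.5, 39.0 and 25.8 CPM in SA tumors and at 101, 91.9 and 84.0 CPM in WT penises. It fell in every tumor, with a log2 fold change of -1.57 (SE 0.164, adjusted p = 9.44e-05), and was below the fold threshold. Foxc2, a factor of lymphatic valves, was at 0.929, 3.28 and 3.18 CPM against 6.69, 5.78 and 5.33 CPM. Its log2 fold change was -1.24 (SE 0.407, adjusted p = 0.0317), a call that was lost without any 1 of the 3 WT samples, with adjusted p between 0.0590 and 0.0979, and with scaling by library totals, at 0.0775.

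Foxd1, of kidney stroma, and Foxs1, of pericytes, did not pass, at log2 fold changes of -0.14 (SE 0.404) and -0.41 (SE 0.483), and the former was 0.14 with scaling by library totals. Foxd2 was at 1.67, 2.85 and 3.26 CPM in SA tumors and at 1.85, 1.74 and 2.64 CPM in WT penises, which overlapped (log2 fold change 0.34, SE 0.321, adjusted p = 0.400). Its neighbour Foxd2os, with annotated ends 359 bp apart, was at 2.68, 5.53 and 7.34 CPM against 1.81, 0.935 and 0.683 CPM. The noncoding transcript rose by 2.20 (SE 0.465, adjusted p = 0.00427), and passed both thresholds in 2 of the 6 fits with a sample left out, with log2 fold changes from 1.86 to 2.67. The ratio of Foxd2os to Foxd2 per length was 1.46 to 2.05 in SA tumors and 0.236 to 0.888 in WT penises.

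Both Foxf1 and Foxl1 are known Hedgehog targets, and 6 of 7 Hedgehog ligand and target genes were tested. Past both thresholds 5 were higher and 0 lower (9.41% and 3.59% of all genes tested), in DESeq2 as in edgeR. As with the hair follicle list, the genes were chosen with earlier results of these data known, so these counts are not independent support. Hhip rose by 3.25, Gli1 by 3.15 and Ptch1, the receptor, by 2.83, while the ligand Dhh fell by 1.34. Of the 8 fibroblast markers 3 fell (background 25.2%) and 0 rose (background 28.2%) in edgeR. Pdgfra was higher by 1.09 at an unadjusted p under 0.05 and in DESeq2. The median of the 8 markers was -0.92 on the log2 scale, and their summed level was 1293 to 4818 CPM in SA tumors and 6309 to 6651 CPM in WT penises. Foxf1, Foxl1, Foxl2 and Foxl2os were thus higher in tumors where fibroblast markers summed lower, and within the tumors all 4 were lowest where those markers were lowest. That was not particular to them: Foxf2, Foxc2, Foxd1, Foxd2, Foxd2os and Foxs1 were also lowest in that tumor, while Foxc1 and Foxd3 were not. The part of fibroblast content in these levels was not tested.

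**Figure D4:**
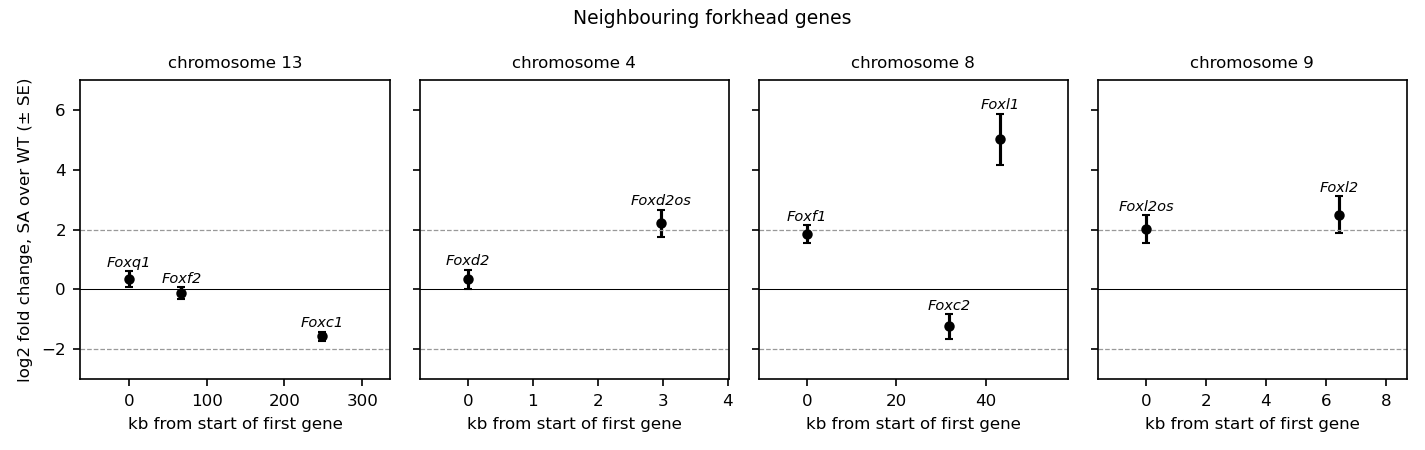
Log2 fold change with its standard error (vertical axis) of forkhead genes that lie within 300 kb of each other, against distance from the start of the first gene (horizontal axis, kb; dashed lines at the fold threshold). On chromosome 8 Foxc2, at -1.24, sits between Foxf1 at 1.85 and Foxl1 at 5.02.

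Forkhead genes with a forkhead neighbour within 300 kb made 4 groups, and differences between neighbours were not tested. On chromosome 8, Foxf1, Foxc2 and Foxl1 lie within 46.3 kb, and Foxf1 and Foxl1 rose while Foxc2 between them fell. On chromosome 13, Foxq1, Foxf2 and Foxc1 lie within 252 kb, and Foxc1 fell while the other two did not pass. On chromosome 9 Foxl2os and Foxl2 rose together, and on chromosome 4 Foxd2os rose while Foxd2 did not pass and Foxe3, at most 8 counts in any library, was not tested.

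Foxd3 (NM_010425, chr4:99656299-99658671), a factor of neural crest and of pluripotent cells, was the forkhead gene that fell most. In SA tumors it was at 0.111, 0.0662 and 0.162 CPM, from 3, 2 and 20 counts, and in WT penises at 1.08, 1.10 and 1.05 CPM, from 24, 33 and 23 counts. The WT samples lay close together, and 2 of the 3 tumors were at or below the level of 3 counts. The log2 fold change was -3.04 (SE 0.386, adjusted p = 0.000280), an 8.24-fold decrease, and it stayed past both thresholds with each of the 6 samples left out. Of 6 markers of Schwann cells and nerve, cells that arise from neural crest, 4 were lower past both thresholds (background 3.59%) and Ncam1 was higher (background 9.41%). Their summed level was 41.4 to 52.0 CPM in SA tumors and 150 to 188 CPM in WT penises. Sox10, a factor of neural crest and glia, fell by 4.53 on the log2 scale. How much of the fall of Foxd3 went with the content of these cells was not tested.

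Foxj1 (NM_008240, chr11:116330704-116335499), the master gene of motile cilia, was at 1.93, 1.42 and 3.34 CPM in SA tumors and at 0.181, 0.0334 and 0.501 CPM in WT penises, from 4, 1 and 11 counts. The groups did not overlap, and both spread widely. Its log2 fold change was 3.33 (SE 0.672, adjusted p = 0.00339), and without the first WT sample it was 3.19 with an adjusted p of 0.0226, past 0.05 but not 0.01. With each sample left out in turn the log2 fold change ranged from 2.71, without WT replicate 2, to 4.47, without WT replicate 3. Of 12 genes of the motile cilium, 8 could be tested and had a median log2 fold change of 0.075. Hydin rose by 9.58, from 2 counts over the WT samples, and Tppp3 fell by 2.61, while Rsph1, Rsph9, Dnah9, Dnaic1, Ccdc39 and Ccdc40 did not pass. Of the 4 not tested, Dnah5, Rsph4a and Armc4 had at most 10 counts in any library, and Tekt1, of the ciliary tubule, had 19, 9 and 70 counts in SA tumors and 1, 0 and 2 in WT penises. At an unadjusted p under 0.05, 3 of the list were higher and 2 lower, and in DESeq2 2 were higher and 1 lower past both thresholds. The median over all genes tested was 0.029.

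The other FoxJ genes are broadly expressed. Foxj2 was at 45.8, 39.3 and 44.4 CPM in SA tumors and at 68.8, 82.1 and 87.4 CPM in WT penises, and fell by 0.88 on the log2 scale (SE 0.119, adjusted p = 0.000402). Foxj3, at 45.0 to 54.0 against 54.7 to 62.8 CPM, did not pass (log2 fold change -0.26, adjusted p = 0.0731; 0.020 with scaling by library totals).

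Of the FoxO genes, which carry insulin and growth factor signals to cell-cycle and stress genes, 3 fell and 1 rose. Foxo1 was at 33.0, 38.1 and 46.7 CPM in SA tumors and at 86.1, 85.2 and 81.0 CPM in WT penises. All tumors were below the controls, with a log2 fold change of -1.10 (SE 0.133, adjusted p = 0.000220). Foxo3 fell by 0.64 (adjusted p = 0.00970) and Foxo4 fell by 0.47 (adjusted p = 0.00320), and both calls were lost with scaling by library totals. By group mean Foxo3 was the most abundant FoxO gene per length, though not in SA tumor 2 or WT penis 1, where Foxo4 exceeded it, as did Foxo1 in the latter. It was at 31.2 to 36.2 TPM in SA tumors 1 and 3, 26.3 TPM in SA tumor 2, and 26.5, 41.5 and 42.7 TPM in WT penises.

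Foxo6 (NM_194060, chr4:120267078-120287261), best known from brain and the member that does not shuttle out of the nucleus on insulin signals as the others do, went the other way. It was at 11.0, 14.9 and 6.90 CPM in SA tumors and at 2.03, 1.87 and 2.46 CPM in WT penises. Every tumor exceeded every control, with replicate 3 the lowest. The log2 fold change was 2.36 (SE 0.305, adjusted p = 0.000311), past both thresholds with each of the 6 samples left out. Per length the ratio of Foxo6 to Foxo1 was 0.325 to 0.857 in SA tumors and 0.0482 to 0.0667 in WT penises.

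Among 15 known FOXO target genes, all tested, 0 passed both thresholds in either direction, 4 rose and 5 fell at any size by edgeR's test, as many as at an unadjusted p under 0.05 and in DESeq2, and the median log2 fold change was 0.054. Gadd45a, a growth arrest gene, rose by 1.78 (SE 0.160, adjusted p = 4.48e-05) and Bcl2l11, which codes for the death protein Bim, by 1.22. Sesn1, a stress gene, fell by 1.93 (SE 0.135, adjusted p = 1.25e-05) and Cdkn1b, a cell-cycle inhibitor, fell by 0.57. These counts are to be read beside the 28.2% of all genes tested that rose and the 25.2% that fell. Summed over the list, SA tumors were at 590 to 673 CPM and WT penises at 677 to 768 CPM, without overlap by a narrow margin.

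Foxm1, which drives genes of G2 and mitosis, was at 31.0, 36.0 and 30.6 CPM in SA tumors and at 26.0, 24.5 and 21.0 CPM in WT penises. The tumors were all above the controls by a small margin, with a log2 fold change of 0.45 (SE 0.125, adjusted p = 0.0161). The call was lost without SA replicate 2, WT replicate 2 or WT replicate 3, with adjusted p between 0.0529 and 0.0839. Of 15 known FOXM1 targets 0 passed both thresholds, 4 rose and 1 fell at any size in edgeR's test, and their median was 0.50. At an unadjusted p under 0.05, and in DESeq2, 5 were higher and 1 lower, and 0 passed both thresholds in DESeq2. Of all genes tested 28.2% rose and 25.2% fell. Bub1 rose by 0.93 (adjusted p = 0.00494), and Plk1, Aurka and Top2a rose by 0.76, 0.71 and 0.50, whereas Cdc25b fell by 0.95 (adjusted p = 0.000194). Summed over the list, WT penises spread from 352 to 588 CPM and held the 543 to 578 CPM of the tumors within that range.

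In the broadly expressed FoxK and FoxP subfamilies, 1 paralogue rose as its partner fell. Foxk2 was at 108, 91.7 and 90.9 CPM in SA tumors and at 58.4, 68.8 and 73.6 CPM in WT penises (log2 fold change 0.53, SE 0.120, adjusted p = 0.00594). Foxk1 was at 90.9, 78.8 and 108 CPM against 126, 147 and 159 CPM, and fell by 0.64 (SE 0.140, adjusted p = 0.00521; not past 0.05 with scaling by library totals). Both encode repressors that bind near genes of autophagy and metabolism. The ratio of Foxk2 to Foxk1 per length was 1.24 to 1.75 in SA tumors and 0.683 to 0.691 in WT penises. Per length, the more abundant of the pair thus differed between the tissues under any scaling between samples. In CPM, SA tumor 3 held less Foxk2 than Foxk1.

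Foxp4 and Foxp1, zinc-finger-bearing repressors of lung and lymphocyte development among other tissues, behaved likewise. Foxp4 was at 107, 113 and 89.0 CPM in SA tumors and at 58.9, 57.6 and 65.2 CPM in WT penises, and rose by 0.76 (SE 0.116, adjusted p = 0.000735). Foxp1 was at 105, 98.8 and 98.2 CPM against 151, 134 and 146 CPM, and fell by 0.51 (SE 0.0902, adjusted p = 0.00159). Their ratio, Foxp4 to Foxp1 per length, was 1.62 to 2.03 in SA tumors and 0.697 to 0.796 in WT penises. Foxp2 was low, at 1.00 to 1.14 CPM against 2.37 to 2.60 CPM, and fell by 1.21 (adjusted p = 0.00312). The other FoxN genes overlapped between the groups, Foxn2 at a log2 fold change of -0.37 (adjusted p = 0.0599) and Foxn3, a checkpoint factor, at 0.52 (adjusted p = 0.0720).

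Summed by subfamily letter, the share of all forkhead TPM shows the make-up of the family within a sample without any scaling between samples. FoxA held 8.94%, 8.95% and 6.01% of it in SA tumors and at most 0.0508% in WT penises. FoxI, nearly all Foxi3, held 6.00%, 3.63% and 3.67% against at most 0.0144%. FoxE had a mean of 3.10% in SA tumors and 0.858% in WT penises and FoxL of 1.36% and 0.240%, with no overlap in either. The FoxL sum includes the noncoding Foxl2os, which held 2.98 of its 9.17 mean TPM in SA tumors.

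The subfamilies with a smaller share in every tumor were FoxC, FoxO, FoxN and FoxJ. FoxC held 2.60% to 3.76% in SA tumors and 8.79% to 10.4% in WT penises, and FoxO 11.8% to 14.5% against 17.8% to 20.3%. FoxN held 8.27% to 10.5% against 12.7% to 15.0%, and FoxJ 6.18% to 7.81% against 9.37% to 11.7%. FoxM, at 2.47% to 2.83% against 1.83% to 2.21%, and FoxP, at 14.3% to 14.4% against 12.4% to 14.1%, were above in the tumors by narrow margins. In all, 6 of the 19 subfamilies had a larger share in every tumor, 4 a smaller one, and 9 overlapped, among them FoxQ, FoxK, FoxF and FoxD. In summed TPM itself 10 were above, 1 below and 8 overlapped, FoxO, FoxN and FoxJ among the last. FoxH was among those above on counts of 1, 1 and 7 in SA tumors and 1, 1 and 0 in WT penises. FoxD was among them with the noncoding Foxd2os in its sum, which held 4.48 of its 7.73 mean TPM in SA tumors. After rescaling by the TMM factors 5 were above, 4 below and 10 overlapped. These tallies include FoxB, FoxG, FoxH and FoxR, the 4 subfamilies with no tested member. Of single genes tested, 63.4% did not overlap in CPM. The subfamily sums were described and not tested.

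**Figure D5:**
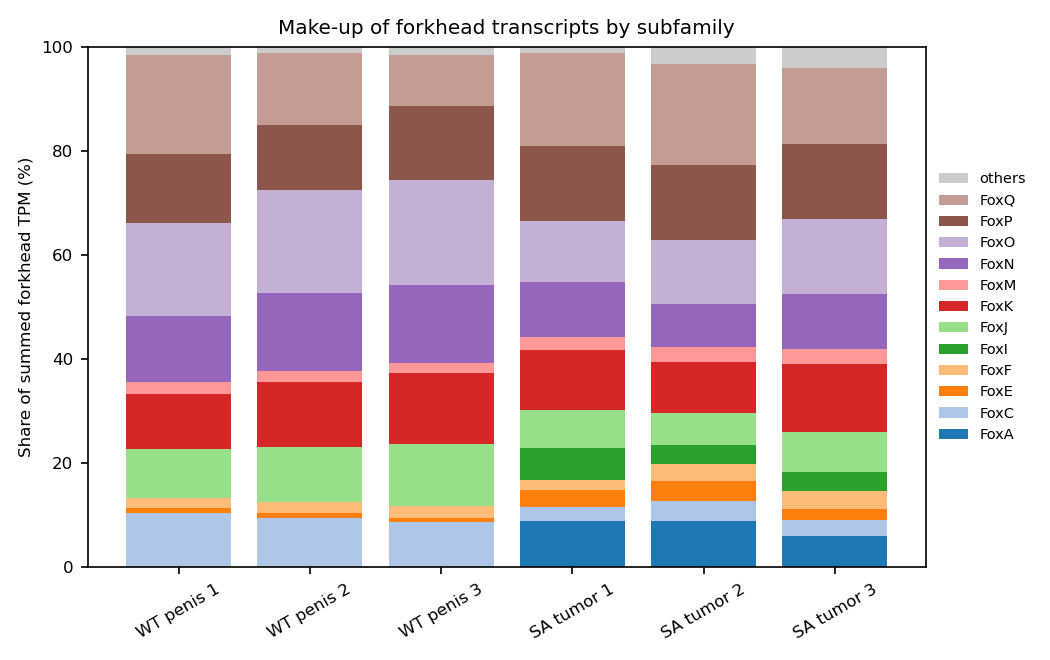
Share of summed forkhead TPM held by each subfamily letter in each sample (vertical axis, percent, stacked to 100; subfamilies under 2% in every sample are joined as others). In the 3 SA tumors FoxA fills 6.01% to 8.95% and FoxI 3.63% to 6.00% of the column, where they are not visible in WT penises, and the FoxC and FoxO bands are narrower.

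In absolute terms all forkhead TPM came to 686 ± 40.5 TPM (SD, n = 3) in SA tumors and 498 ± 29.2 TPM (SD, n = 3) in WT penises, without overlap. Rescaled by the TMM factors, the sums were 589 ± 49.4 and 567 ± 8.27 and overlapped, so that a larger forkhead total in tumors depended on the scaling. By rank per length, Foxq1 was first in both tissues. Foxp4 followed in SA tumors (10th in WT penises), Foxa2 was 3rd (32nd in WT) and Foxi3 9th (31st in WT), whereas Foxc1 moved from 2nd to 15th and Foxn1 from 3rd to 14th.

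The 12 members that did not reach the test include Foxa1, Foxb1, Foxb2, Foxd4, Foxe3, Foxh1, Foxi1, Foxi2, Foxn4, Foxr1 and Foxr2, and 4 subfamilies had no tested member. Foxd4 alone among them separated the groups, with 8, 4 and 33 counts in SA tumors and none in WT penises. Its SA mean was 1.70 times the floor of the shallowest WT library, 0.137 CPM, but SA tumor 2, at 0.132 CPM, was below that floor. Foxd4 passed both thresholds in DESeq2 and in edgeR without a filter on low counts. Its helix bases were the same as those of Foxd3, which went the other way, and the 68-base run that they share is shorter than a read. Foxb1, of the developing brain, had 4 counts in 1 SA tumor and 1 in a WT penis, and Foxi1 and Foxi2, relatives of Foxi3, had at most 5 counts in any library. Foxn4, Foxr1 and Foxr2 had counts in 1 SA tumor each and none in WT penises, and at 3 counts or fewer were not detectable above the floor at this depth.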

How the data were processed

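Stranded paired-end libraries were made from total RNA of 3 SA tumors and 3 WT penises. The authors used TopHat for alignment to mm10 and HTSeq for counting, and FastQC and DESeq2 are also named in the submitters' processing notes; versions, and whether counting used strand, are not given in the sources used here. The deposited files hold raw counts for 33068 RefSeq transcripts, with FPKM and TPM values that the authors derived from them. Counts were tested, the deposited TPM values were rescaled to an equal total over gene rows and used to compare genes, and the deposited FPKM values were not used further, since TPM was a fixed multiple of them within a sample.

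One row per symbol was kept, the transcript with the highest mean count; 7 members had several. In R 4.3.3, edgeR 4.0.16 (filterByExpr, minimum 10 counts in 3 samples and 15 in total; TMM; robust quasi-likelihood F-test) was fitted over all genes with Benjamini-Hochberg adjustment. The thresholds (adjusted p under 0.01, log2 fold change at least 2 in size) were those of the study; 0.05 was used without a fold limit. An SE is the log2 fold change divided by the square root of F. Counting intervals are exact binomial at 95%. The code was tested on simulated data with known changes. The labels name 3 SA mice and do not say how many WT mice were used, so p-values measure the spread between these samples. No 2 libraries agreed within sampling noise.

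The members and the gene lists were chosen with earlier results of these data known. Full values are given to members past both thresholds and to leading members of each subfamily. Helix bases come from GENCODE vM21 transcripts, and protein sequences, which had been planned, were not used here. Some genes and sequences that these rules cover are not reported here. Replicate numbers were not treated as pairs: residuals of same-numbered samples correlated at -0.13 to 0.024. Alternatives were RLE, upper quartile and library-total scaling, DESeq2 1.42.0, no filter, a mean of at least 50 counts, the replicate block, summed transcript rows, SA library 3 thinned to the median depth of the others and each sample left out. TPM rescaled by TMM was added after the data were seen.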

Additional observations from a re-analysis of the deposited data

How the results depend on the processing

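The count of forkhead genes higher past both thresholds was 8 and ranged from 7 to 11 over 9 alternatives and from 6 to 10 with each sample left out. The lower count was 1 throughout, except that it was 0 with a mean of at least 50 counts, since Foxd3 and Foxa3 then left the table of genes tested. The count at any size, 25, ranged from 22 to 26 and, with each sample left out, from 23 to 27. Foxa2, Foxi3, Foxl1 and Foxo6 passed both thresholds under all 15 alternatives. With scaling by library totals the median over all genes moved from 0.029 to 0.31, and Foxe1, Foxf1 and Foxl2 joined the higher genes. DESeq2 gave 9, without Foxl2os and with Foxd4 and Foxl2. The replicate block gave 7 higher genes, without Foxd2os and Foxl2os and with Foxl2, and 1 lower and 25 at any size; since the pairing check found no pairing, this is not read as a weaker effect. Directions turned, all for genes that did not pass, for Foxd1 (0.14), Foxf2 (0.16) and Foxj3 (0.020) with library totals, and with samples left out for Foxd1 (-0.39 to 0.043) and Foxf2 (-0.33 to 0.035), positive without SA replicate 1. The log2 ratio of the FoxK sum was -0.045 in TPM rescaled by TMM and -0.16 in CPM, and that of FoxP was -0.016 in CPM, where TPM put both higher in tumors. Why these settings differ was not tested. Depth limits the size of the change in Foxa2, Foxa3, Foxd3, Foxi3, Foxj1 and Foxl1, tested genes whose lower group rests on at most 25 counts.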

Other observations

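Genes other than forkhead genes changed in the same lists with values not given above. Among markers of lymphatic endothelium, Prox1, which is also expressed outside lymphatics, was at 145, 82.0 and 84.4 CPM in SA tumors and at 2.31, 4.04 and 3.92 CPM in WT penises, while Lyve1 fell by 1.31 on the log2 scale and Flt4 did not pass. Ncam1, an adhesion molecule listed here with nerve markers, rose by 2.21, with 25.8 to 26.3 CPM in SA tumors and 5.24 to 5.92 CPM in WT penises. Blood endothelium markers (6 tested) had 3 that fell (background 25.2%), led by Emcn, and summed to 157 to 265 CPM in SA tumors and 292 to 340 CPM in WT penises. Against a background of 28.2%, 3 of 6 leukocyte markers tested rose in edgeR (Ptprc, Itgam by 1.19 and Laptm5 by 1.13) and 0 fell. In DESeq2 or at an unadjusted p under 0.05, 4 of them were higher and 0 lower. They summed to 87.1, 184 and 266 CPM in SA tumors and to 87.7 to 120 CPM in WT penises, and overlapped. Their lowest tumor, the first, was also the lowest in fibroblast markers and in Foxf1, Foxl1, Foxl2 and Foxl2os. It was the lowest as well in Foxf2, Foxc2, Foxd1, Foxd2, Foxd2os and Foxs1, which did not all rise.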
